A study of Mus musculus with 4 samples.

Results

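The receptor tyrosine kinase genes described here are 33 named genes, taken as a list and matched by symbol to the RefSeq gene table of GRCm38.p6, in which all 33 were found. They stand among 21631 protein-coding genes on chromosomes 1 to 19 and X. A gene was assigned every peak whose summit lay in its body or within 5 kb of either end. The material was 4T1-TGL, a mouse breast cancer cell line of strain BALB/c with a wild-type genotype label, grown in DMEM/F12. In ChIRP (chromatin isolation by RNA purification), biotin-tagged oligonucleotides complementary to an RNA pull it out of sonicated nuclei, and the attached DNA is sequenced, here with reads of 76 nt. The 4 libraries, 1 in each of 4 groups, were a pull-down titled Even, a pull-down titled Odd, a pull-down titled LacZ and an input titled as the input of Even. The target was Malat1, a long noncoding RNA of nuclear speckles. The shared protocol text names oligonucleotides against Malat1 for all 4 libraries, LacZ included.

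Receptor tyrosine kinases are membrane proteins that bind a ligand outside the cell, pair up and phosphorylate tyrosines on each other and on adaptor proteins, which pass the signal to the Ras and PI3K pathways. In mammary epithelium and its tumours the ErbB, Met, FGF and Eph receptors are known for their part in growth and migration, whereas receptors such as Kdr, Flt4, Tek and Tie1 are known from endothelium and Csf1r from macrophages. Whether a gene of this list was transcribed in these cells was not measured by this assay.

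The values came from 1 peak list of a merged treatment against the input, so that the pull-downs could not be compared and replicate error is unknown. The headers do not say which pull-downs were merged. The treatment held 851227 tags after duplicate removal and the input 50030325. The list held 77823 peaks, 77713 of them on chromosomes 1 to 19 and X. The Malat1 locus itself held the peak with the most tags, 2818, against 466 in the next peak on these chromosomes. Tags are counts of sequenced fragments in a peak, with a minimum of 3 in this list. The fold is the authors' enrichment of the summit over the scaled local input. The implied input is the summit height divided by the fold, in units of the genome mean, and gives the input level that the fold was taken over. No peak of these genes had a value below 1.00, so that a value of 1.00 may stand for local input at or below the mean. Intervals given below are 95% intervals and cover counting error only.

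No peak overlapped a listed promoter of these genes. RefSeq promoter sequences, which run from 250 bases before to 50 bases after a start and hence span 300 bases, were matched for 27 of the 33 genes, with 33 starts in all. A peak overlapped such a window in 0 of these 27 genes, against 2.12% of the 17274 protein-coding genes with a listed promoter. At a share that low, 0 of 27 does not set these genes apart. The summits nearest to a listed start, with negative positions upstream of it, were those of Musk at -380 bases, Ddr1 at 666 bases from an inner start, and Ntrk2 at -935 bases. The bases ahead of the start are shown for the 3 genes with a summit within 2 kb of a listed start and at least 100 upstream bases outside every annotated gene body. They show what lay beside these peaks without being covered by them. They are RefSeq sequence of GRCm38.p6, written 5′ to 3′ in the direction of transcription, and capitals mark each CG dinucleotide, which reads the same on both strands.
Epha2, chr4:141300971-141301220, plus strand: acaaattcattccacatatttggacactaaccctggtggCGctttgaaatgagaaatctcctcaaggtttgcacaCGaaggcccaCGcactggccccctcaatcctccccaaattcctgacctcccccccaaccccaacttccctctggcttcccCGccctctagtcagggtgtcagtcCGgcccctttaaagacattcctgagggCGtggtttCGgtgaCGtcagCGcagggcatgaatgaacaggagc
Fgfr2, chr7:130266809-130267058, minus strand: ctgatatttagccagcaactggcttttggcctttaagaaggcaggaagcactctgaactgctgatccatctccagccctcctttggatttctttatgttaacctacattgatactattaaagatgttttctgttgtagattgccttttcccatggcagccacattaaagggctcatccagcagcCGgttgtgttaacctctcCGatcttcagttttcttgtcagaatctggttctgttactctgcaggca
Ntrk2, chr13:58806319-58806471, plus strand: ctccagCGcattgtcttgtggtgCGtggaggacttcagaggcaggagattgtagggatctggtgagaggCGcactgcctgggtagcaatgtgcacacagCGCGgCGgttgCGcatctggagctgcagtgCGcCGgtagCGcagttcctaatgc
The upstream bases of Epha2 held 9 CG dinucleotides in 250 bases, those of Fgfr2 held 2, and the 153 bases of Ntrk2 that lie before its gene body held 10. Over all 17274 genes the median was 10 in 250 bases, and 92.9% had at least 1. The nearest peaks lay 1474, 1104 and 573 bases from the listed windows of Epha2, Fgfr2 and Ntrk2. The peak beside Epha2 held 18 tags and those beside Fgfr2 and Ntrk2 held 5 each.

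Almost every gene of the list had a summit. A summit was present at 32 of 33 genes, against 60.8% of all protein-coding genes. These receptor genes are long: their median length was 46885 bases, from 13526 for Mst1r to 327499 for Ntrk2, against 17329 for all protein-coding genes. Genes of like length are those whose length stands to the member's in a ratio of at most 5 to 4, and among them the share with a summit ran from 57.4% to 99.1%. Summed over the list, these shares came to 26.7 genes. The gene without a summit was Fgfr4 (chromosome 13, 55152818 to 55168759), an FGF receptor whose gene is only 15.9 kb long. Its flanks predicted 0.856 summits and the nearest summit lay 9441 bases from its body. Of the 33 genes, 17 held more summits than the median gene of like length, 8 held as many and 8 held fewer.

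**Figure D1:**
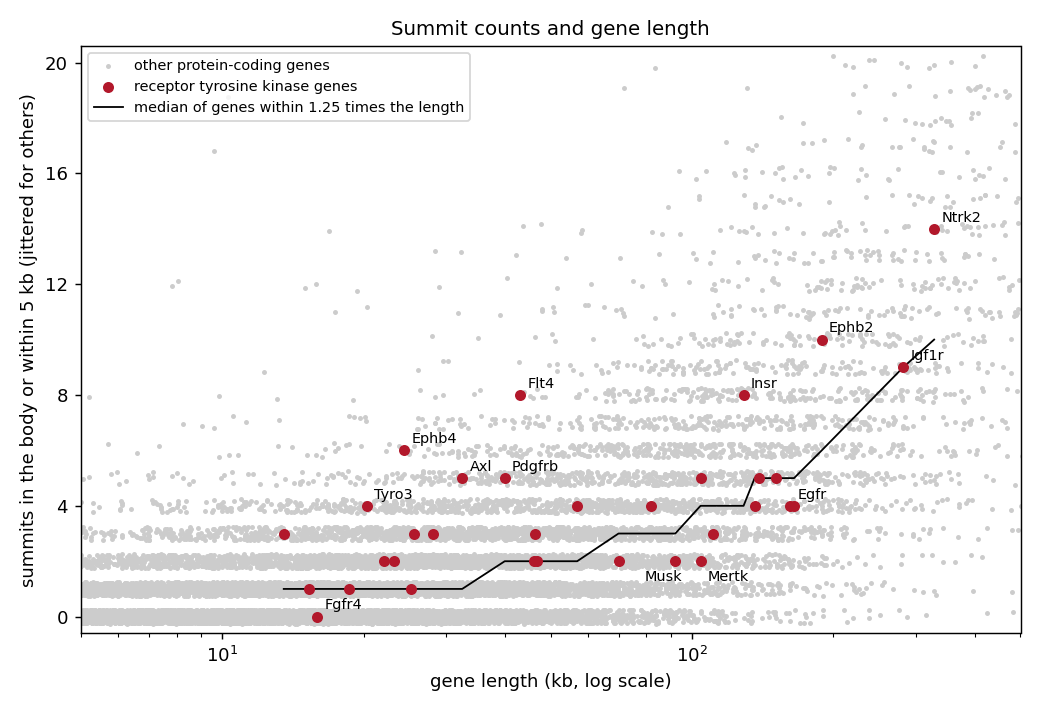
Number of summits in each gene's window (vertical axis) against gene length (horizontal axis, kb, log scale). Red points are the 33 receptor genes, some of them named, grey points are other protein-coding genes within the axes, jittered vertically, and the line joins the medians of genes of like length. Ephb4 with 6 summits and Flt4 with 8 lie farthest above the line for their length, and Fgfr4 sits at 0.

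Against their own neighbourhoods the genes held slightly more summits than predicted, by an amount within counting error. The prediction for a gene is the density of summits in 1 Mb on each side multiplied by the length of its window. The 33 windows held 136 summits where 117 were predicted, a ratio of 1.16 (exact Poisson interval 0.974 to 1.37). The ratio was above 1 for 19 genes and below 1 for 14, with a median of 1.12. Over all protein-coding genes, most of which are shorter, the median ratio was 0.764. Each gene was compared with its flanks by a two-sided exact binomial test with Benjamini-Hochberg adjustment over 21420 protein-coding genes. No gene of the list passed at an adjusted p of 0.05, and the lowest adjusted p was 0.382, for Flt4 by this exact binomial test. Over all genes 0.0794% passed as higher and 0.042% as lower. Without adjustment, 4 of the 33 genes were higher at p below 0.05, against 4.67% of all genes, and 0 were lower, against 0.551%. These 4 were Flt4, Ephb4, Tyro3 and Axl, described with their families below.

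**Figure D2:**
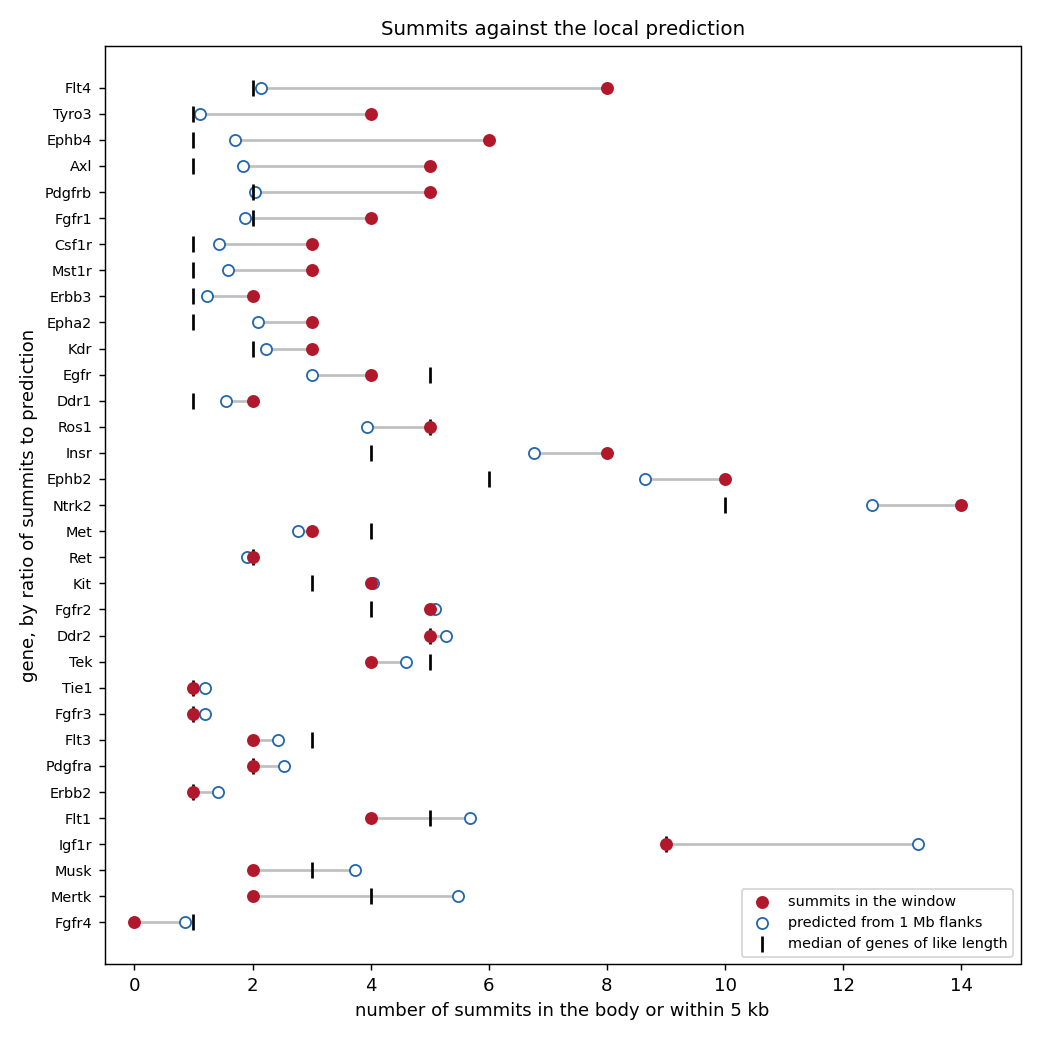
Summits in each gene's window (filled red), the number predicted from 1 Mb flanks (open blue) and the median of genes of like length (black tick), all as counts on the horizontal axis, with genes ordered by the ratio of summits to prediction. Flt4, Tyro3, Ephb4 and Axl are at the top with 8, 4, 6 and 5 summits, and Mertk, Musk and Fgfr4 are at the bottom with 2, 2 and 0.

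Most peaks at these genes held few tags, as did peaks elsewhere. Their median was 4 tags and a fold of 145, against 5 tags and 129 at other protein-coding genes and 5 tags and 133 over all peaks. The minimum of 3 tags was the whole content of 50 of the 136 peaks (36.8%), against 37.2% of all peaks. At least 10 tags were held by 25 peaks (18.4%), against 22.3%. A peak of that size was present at 16 of the 33 genes, against 25.9% of all protein-coding genes, and the shares among genes of like length summed to 13.7. At 15 of the 32 genes with a summit the best fold was at or above the median of like-length genes with a summit. The median implied input in the flanks ran from 1.04 at Flt1 and Flt3 to 1.89 at Mst1r.

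**Figure D3:**
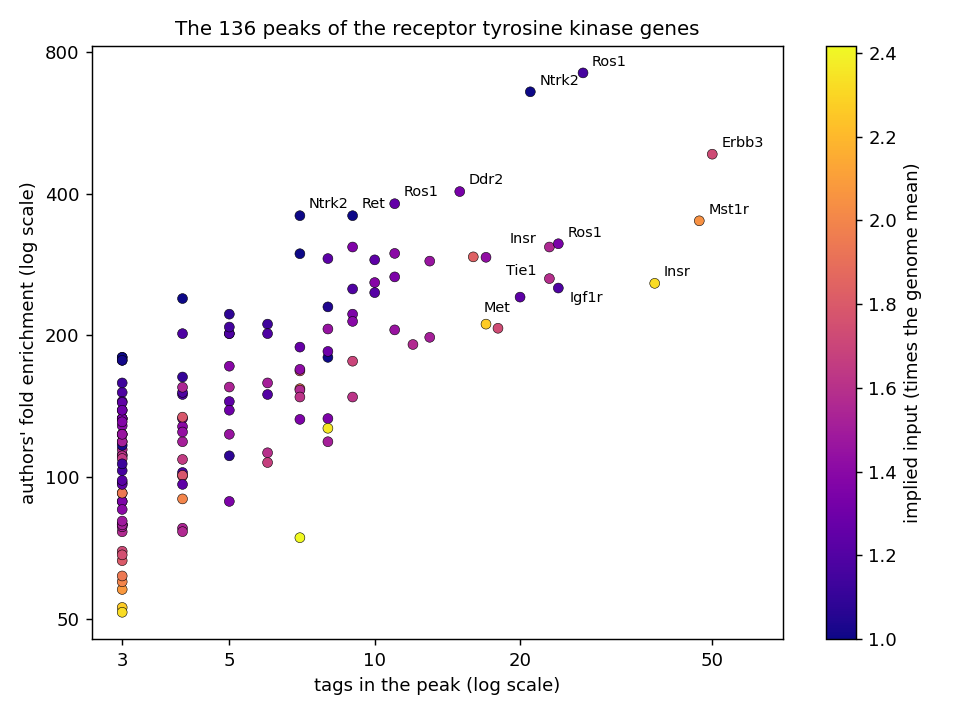
Tags (horizontal axis, log scale) and the authors' fold enrichment (vertical axis, log scale) of the 136 peaks, coloured by implied input in units of the genome mean. Most points lie between 3 and 10 tags. Ros1 and Ntrk2 have the highest folds, 722 and 658, while Erbb3 and Mst1r have the most tags, 50 and 47.

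Among the ErbB receptors, which bind EGF-like ligands and neuregulins, the peak at Erbb3 stood out by its tags. Egfr, the EGF receptor (chromosome 11, 16752203 to 16913907), held 4 summits with 5, 3, 4 and 3 tags and folds of 145, 179.5, 150 and 103. All 4 lay between 8.14% and 29.5% of the gene body from its start, and the rest of the gene had none. Its flanks predicted 3.00. In genes of like length the median was 5 summits and 36 summed tags, whereas Egfr held 15 tags. Erbb2, the receptor amplified in a class of human breast cancers, held a single summit of 3 tags and a fold of 119 at 60.7% of its body, with 1.41 predicted. Erbb3, the neuregulin receptor with little kinase activity of its own (chromosome 10, 128567523 to 128589635), held a peak of 50 tags (exact Poisson interval 37.1 to 65.9) from 128572246 to 128572830, with a fold of 485. By tags it ranked 1026 of all peaks, and by fold 1985. Only 2.86% of genes of like length had a best fold as high. Its second peak, 1533 bases away by summit, held 3 tags.

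Both receptors of the HGF family had a summit, and that of Mst1r held the second largest number of tags in the list. Met, the HGF receptor (chromosome 6), held 3 summits with 20, 5 and 3 tags and folds of 241, 139 and 57.7, where 2.77 were predicted. They lay at 25.2%, 69.6% and 97.7% of the body. Mst1r, also called Ron, the receptor for macrophage-stimulating protein (chromosome 9, 107906858 to 107920383), held a peak of 47 tags (34.5 to 62.5) from 107916696 to 107917130, with a fold of 350 and an implied input of 2.05. Its place was at 75.0% of the body, 1993 bases past an inner listed start. The other 2 summits of Mst1r held 3 tags each and lay at -2415 and -3624 bases from its first listed start, where they were also within 5 kb of the neighbour Mon1a. At 13.5 kb Mst1r was the shortest gene of the list. Of genes of like length, 1.82% held as many tags as its 53.

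The TAM receptors Axl, Tyro3 and Mertk differed in number of summits for their length. Each binds Gas6, and Tyro3 and Mertk also bind protein S. Axl (chromosome 7, 25756500 to 25788924) held 5 summits with 13, 3, 10, 5 and 7 tags, where 1.85 were predicted, a ratio of 2.71 (interval 0.858 to 6.57, exact binomial p = 0.0432, adjusted p = 0.917). The last 4 followed each other at 337, 369 and 839 bases, between 53.3% and 58.1% of the body. The 13-tag peak lay past the end of Axl, within the body of the neighbour Hnrnpul1. Tyro3 (chromosome 2, 119797740 to 119818104) held 4 summits with 4, 3, 8 and 5 tags, where 1.11 were predicted (ratio 3.61, interval 0.958 to 9.64, exact binomial p = 0.0286, adjusted p = 0.811). The first 3 were spaced at 151 and 737 bases. When summits up to 2 kb apart were counted once, the ratio fell to 1.29 for Axl (exact binomial p = 0.67) and 2.06 for Tyro3 (exact binomial p = 0.259), an alternative chosen after seeing the data. Among peaks at or above the median fold of 133.07 it was 5.10 for Axl and 7.06 for Tyro3, and neither passed the adjusted threshold. The Tyro3 summits kept there were its first 3, each with a fold of exactly 133.07, so that they only tied with the cut. Against only the gene-body part of the flanks the ratio of Axl was 1.81 (exact binomial p = 0.211). The intervals and the test use different exact constructions, so that an interval can include 1 at p below 0.05. Mertk (chromosome 2) had the lowest ratio of the genes with a summit: 2 summits, of 10 and 3 tags, where 5.48 were predicted (ratio 0.365, interval 0.0435 to 1.35, exact binomial p = 0.179, adjusted p = 1). Per length, Tyro3 held 13.2 summits in 100 kb of window, Axl 11.8 and Mertk 1.75.

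The 4 FGF receptors held 10 summits where 9.01 were predicted, all of few tags. No peak of the family had more than 7 tags or a fold above 202. Fgfr1 (chromosome 8) held 4 summits with 5, 4, 5 and 3 tags where 1.87 were predicted. The middle 2, with a fold of 202 each, were 154 bases apart in the body, where the annotated gene Gm31288 also lies, and the first lay within 1 kb of an end. Fgfr2, the receptor whose locus carries a known human breast cancer risk association (chromosome 7, 130162451 to 130266808), held 5 summits with 3, 3, 7, 5 and 3 tags where 5.09 were predicted. Of these, 2 lay 1670 and 1287 bases past the start shown above and 1 lay at -3856 bases from it. Fgfr3 held a single 4-tag summit with a fold of 77.8 in mid-body, and Fgfr4 none.

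The PDGF receptor family of 5 genes had a summit at each, with counts near the prediction for Pdgfra, Kit and Flt3. Pdgfra and Pdgfrb bind PDGF, Kit binds stem cell factor, Flt3 its own ligand and Csf1r the macrophage colony-stimulating factor. Pdgfra held 2 summits (3 and 7 tags) where 2.53 were predicted, Kit 4 (4, 3, 4 and 9 tags) where 4.04 were predicted, and Flt3 2 (9 and 3 tags) where 2.43 were predicted. The strongest, with a fold of 308, lay past the end of Kit, at 104% of its body length. Pdgfrb (chromosome 18, 61045127 to 61085067) held 5 summits with 3, 3, 3, 6 and 3 tags where 2.05 were predicted (ratio 2.44, interval 0.772 to 5.93, exact binomial p = 0.0617, adjusted p = 1). The first 4 were spaced at only 125, 312 and 434 bases, at 65.2% to 67.3% of the body. Its highest fold was 111, and with peaks of at least 4 tags only, its ratio was 0.785. Counting summits up to 2 kb apart once gave 1.14. Csf1r, the macrophage receptor that begins 20.5 kb from Pdgfrb, held 3 summits with 4, 6 and 3 tags where 1.44 were predicted. As neighbours, these genes share flanks: Pdgfrb and Csf1r, Flt3 and Flt1, and Pdgfra, Kit and Kdr each lie within the flanks of the others.

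Of the receptors for vascular endothelial growth factors, Flt4 had the largest ratio of the list. Flt4, the VEGF-C receptor of lymphatic endothelium (chromosome 11, 49609679 to 49652739), held 8 summits where 2.15 were predicted. The ratio was 3.72 (interval 1.55 to 7.69, exact binomial p = 0.00219, adjusted p = 0.382). Its peaks held 3, 3, 4, 3, 7, 3, 7 and 8 tags, with folds from 51.6 to 168, and were spread from 12.0% of the body to 104%, past its end. Only 1.63% of genes of like length held as many summits, but 45.8% had a best fold as high. Among peaks of at least 4 tags its ratio was 2.90 (exact binomial p = 0.0568), and among peaks at or above the median fold 1.88 (exact binomial p = 0.296). Kdr, the main VEGF receptor, held 3 summits (4, 3 and 5 tags) where 2.22 were predicted, and Flt1, which binds VEGF as a decoy, held 4 (4, 8, 3 and 10 tags) where 5.68 were predicted. Flt1 had folds of 239, 230, 177 and 289 at those peaks, each above the 168 of the Flt4 peak with the highest fold. The implied inputs differed, at 1.00 to 1.24 for the Flt1 peaks and 1.64 to 2.42 for those of Flt4. By tags the order was not the same: the Flt1 peak of fold 177 held 3 and the Flt4 peak of fold 168 held 7.

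The insulin receptor gene held the most tags of the list. Insr (chromosome 8, 3150922 to 3279649) held 8 summits with 38, 17, 4, 16, 3, 3, 4 and 23 tags, 108 in all, where like-length genes had a median of 30. The 38-tag peak (26.9 to 52.2) lay from 3206501 to 3207101, with a fold of 258 and an implied input of 2.32. The highest fold, 308, belonged to the 23-tag peak near the right end of the gene. Of like-length genes 5.54% held as many tags, and its flanks predicted 6.76 summits, which is close to the 8 found. The flanks of Insr spanned only 1047058 bases, because the outermost summit of chromosome 8 lies close to its left. Igf1r, the receptor for insulin-like growth factors (chromosome 7, 67952257 to 68233668), held 9 summits where 13.3 were predicted (ratio 0.679, interval 0.301 to 1.35, exact binomial p = 0.366, adjusted p = 1). Its peaks held from 3 to 24 tags, and the median of like-length genes was also 9 summits. The 24-tag peak had a fold of 252 at 72.3% of the body.

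Ntrk2, the longest gene of the list, held the most summits, close to the prediction. Ntrk2, also called TrkB, the receptor for brain-derived neurotrophic factor (chromosome 13, 58806472 to 59133970), held 14 summits where 12.5 were predicted (ratio 1.12, interval 0.585 to 2.00, exact binomial p = 0.65, adjusted p = 1). Of its peaks 13 held from 3 to 8 tags. The exception was a peak of 21 tags (13.0 to 32.1) from 58985545 to 58985798, with a fold of 658, rank 607 of all peaks, at 54.7% of the body and an implied input of 1.00. A further peak of 7 tags near the end of the gene had a fold of 359. Ret, the receptor for GDNF-family ligands (chromosome 6), held 2 summits of 9 and 8 tags with folds of 359 and 185, where 1.90 were predicted. For Ret, 11.5% of like-length genes had a best fold as high, and for Ntrk2 11.9%.

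The angiopoietin and collagen receptors lay near their predictions. Tek, the angiopoietin receptor, held 4 summits (6, 11, 3 and 3 tags) where 4.60 were predicted. Tie1, its co-receptor, held a single peak of 23 tags (14.6 to 34.5) with a fold of 264 at 44.4% of its 18.7 kb body, where 1.19 were predicted. The collagen receptor Ddr1 held 2 summits of 3 and 4 tags where 1.54 were predicted. Ddr2 (chromosome 1) held 5 with 3, 13, 8, 3 and 15 tags where 5.27 were predicted. The 15-tag peak had a fold of 404, rank 3747, at 1.67% of the body of Ddr2, at -19583 bases from the listed start, which lies inside the annotated body.

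The 3 listed Eph receptors had the highest ratio of the families here, 1.53, with 19 summits where 12.4 were predicted. Eph receptors bind membrane-bound ephrins and guide cell contact and migration. Eph genes outside the list had ratios on both sides of 1, from 0 (Ephb6) and 0.244 (Epha5) to 2.23 (Ephb3) and 4.13 (Epha1). The value of 1.53 hence describes the 3 listed genes only. Of these 3, the largest ratio was that of Ephb4, the ephrin-B2 receptor of veins and mammary epithelium (chromosome 5, 137350109 to 137374522). Ephb4 held 6 summits with 3, 3, 6, 7, 9 and 17 tags where 1.70 were predicted (ratio 3.52, interval 1.26 to 7.94, exact binomial p = 0.0091, adjusted p = 0.594). The last 2, with folds of 214 and 211, lay past its end and were also within 5 kb of Zan. Per length, Ephb4 held 17.4 summits in 100 kb, the most of the 33 genes, and 1.60% of like-length genes held as many summits. Counting summits up to 2 kb apart once left its ratio at 3.38 (exact binomial p = 0.0194, adjusted p = 1), and among peaks at or above the median fold it was 6.76. Ephb2 (chromosome 4) held 10 summits with 3 to 11 tags where 8.65 were predicted. Of these, 3 lay between 2267 and 4240 bases past its listed start, and 2 lay near its end, with folds of 291 and 299, the highest of the gene. Epha2 (chromosome 4), a receptor known for overexpression in breast tumours, held 3 summits of 18, 9 and 12 tags where 2.10 were predicted. Its 39 tags were reached by 6.80% of like-length genes. Its ratio of 1.43 was 2.21 among peaks of at least 4 tags (exact binomial p = 0.162). Among those at or above the median fold it was 2.42 (exact binomial p = 0.135). Counting summits up to 2 kb apart once gave 1.09 (exact binomial p = 0.707), since its last 2 summits lay 963 bases apart.

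The strongest fold of the list was at Ros1, while Musk held few tags. Ros1, a receptor known from human fusion oncogenes (chromosome 10, 52044863 to 52195398), held 5 summits with 24, 11, 27, 4 and 11 tags where 3.93 were predicted. The 27-tag peak (17.8 to 39.3), from 52075321 to 52075580, had a fold of 722, rank 383 of all peaks, and lay at 79.6% of the body. The 24-tag peak lay past the end of the gene. A best fold as high was found at 2.99% of like-length genes. The ratio of Ros1 was 1.27, and 1.95 among peaks of at least 4 tags (exact binomial p = 0.194). For the body alone it was 1.08 (exact binomial p = 0.787). Musk (chromosome 4), the agrin-activated kinase of the neuromuscular junction, held 2 summits of 4 and 3 tags where 3.73 were predicted (ratio 0.537, interval 0.0638 to 2.01, exact binomial p = 0.588, adjusted p = 1). The former was the summit at -380 bases from its listed start, with a fold of 125. For the body alone the ratio was 0.293, and no peak of Musk reached the median fold.

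**Figure D4:**
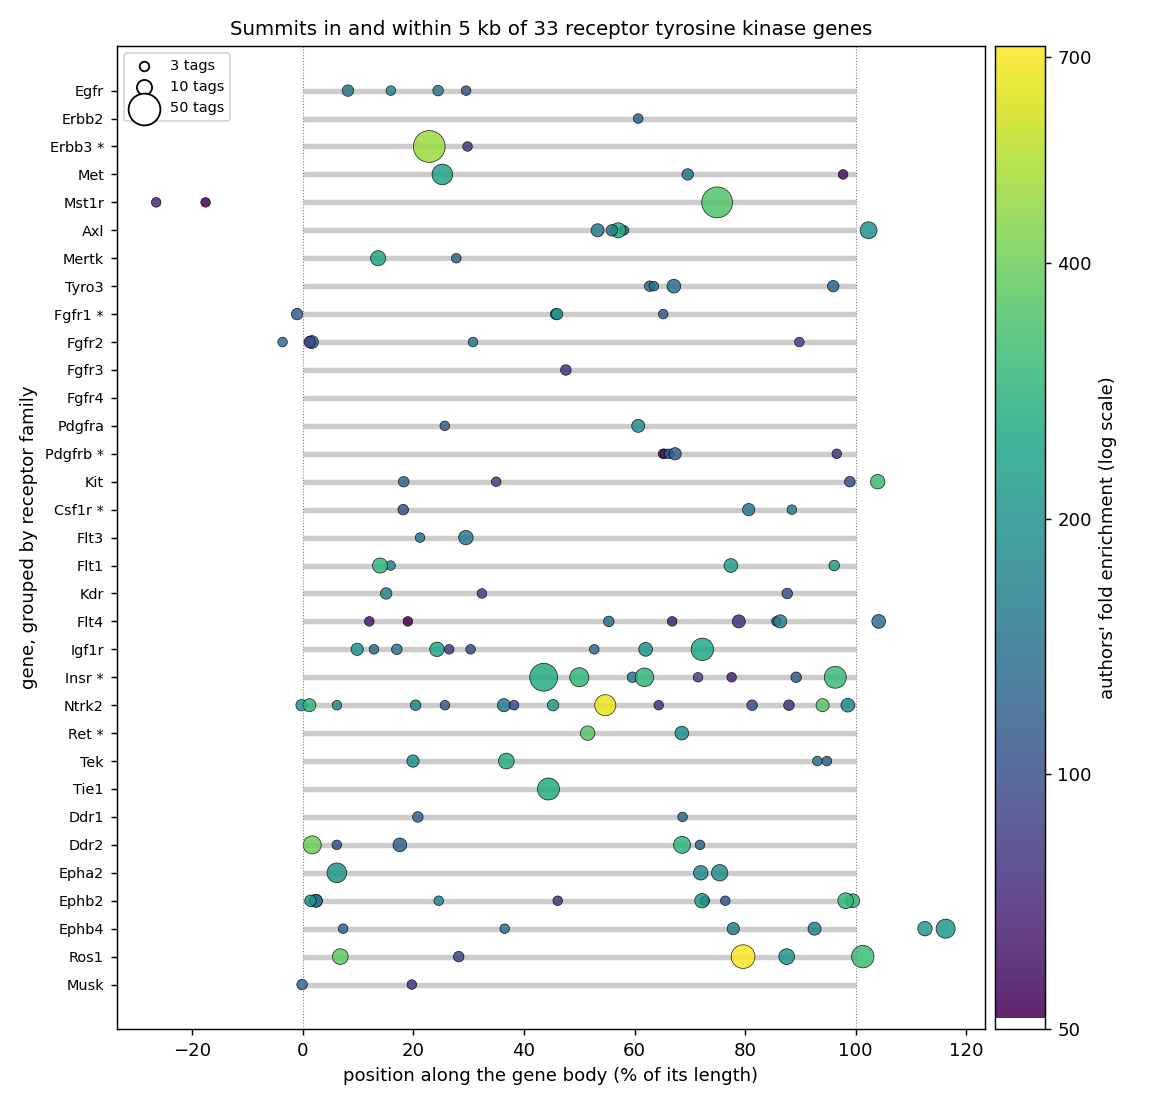
Position of each summit along its gene (horizontal axis, percent of body length from the start, with the 5 kb on each side outside 0 and 100) and 1 line for each gene. Point area grows with tags and colour gives the authors' fold on a log scale. An asterisk marks the 6 genes with no strand in the tables used, drawn by increasing coordinate. The 4 Egfr summits lie before 30 percent, those of Pdgfrb and Axl are bunched, and Fgfr4 has none.

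Summits lay mostly in gene bodies, which make up most of the length of the windows. A strand was taken from the promoter table for 27 genes, which held 112 summits. Of these, 98 (87.5%, Wilson interval 80.1 to 92.4) lay in the body more than 1 kb from either end, against 77.9% at other protein-coding genes, whose bodies are shorter. Per length the density in the body was 4.06 summits in 100 kb, against 3.55 at other genes. It was 2.78 at 1 to 5 kb upstream, 3.70 within 1 kb of the start, 7.41 within 1 kb of the end and 4.63 downstream. These 4 values rest on 3, 2, 4 and 5 summits, and at other genes they were 3.61, 4.12, 3.86 and 3.95. With so few summits outside the body, these densities do not rank the parts of the gene. Within 1 kb of the start lay 2 summits, of Ntrk2 and Musk, and within 1 kb of the end lay 4, of Axl, Tyro3, Kit and Ephb2. When each body was divided into 3 equal parts, 44 of 101 summits (43.6%) lay in the part nearest the start, 22 (21.8%) in the middle and 35 (34.7%) in the part nearest the end. At other genes these shares were 32.1%, 32.6% and 35.3%. Ntrk2, Ephb2 and Igf1r alone held 14, 10 and 9 of the 112 summits. Of neighbouring summits in a gene, 15 of 104 pairs (14.4%) lay within 1 kb, against 12.3% at other genes, and 19 (18.3%) within 2 kb, against 19.4%. The median gap was 11361 bases, against 9606.

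Other genes of the pathway, from 4 lists of 152 genes in all, had a summit about as often as genes of their length or more often. Of 69 ligand genes 52 had a summit (75.4%, with like-length shares summing to 44.6), and of 25 further receptor kinase genes 21 (20.7). Of 38 adaptors and transducers 30 had a summit (29.8), and of 20 negative regulators 17 (14.0). By the local exact binomial test, 0 of the 152 passed the adjusted threshold. The lowest adjusted p in these lists was 0.0953, for Erbb4, a neuregulin receptor, which held 9 summits against a prediction of 31.0 (exact binomial p = 0.000141). Unadjusted p was below 0.05 as higher for 4 ligands, 1 further receptor, 3 transducers and 1 negative regulator, and as lower for 0, 2, 0 and 0. These 9 higher and 2 lower calls among 152 genes stand beside the 4.67% and 0.551% of all genes given above.

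**Figure D5:**
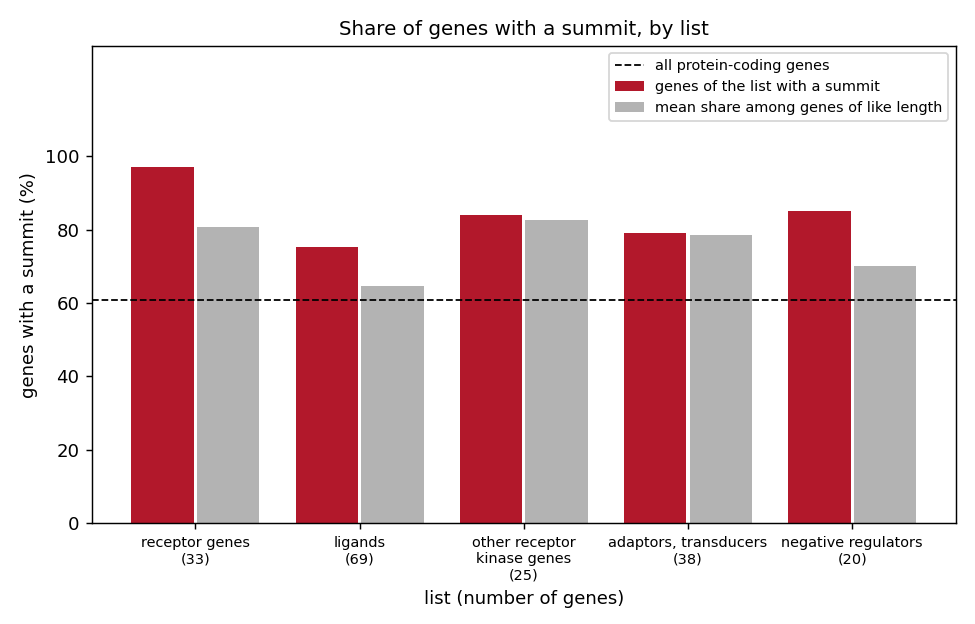
Share of genes with a summit in their window (vertical axis, percent) for the 33 receptor genes and 4 related lists (red), beside the mean share among genes of like length (grey). The dashed line is the share of all protein-coding genes, 60.8 percent. The receptor genes reach 97.0 percent against 80.8 for like length.

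Ligand genes lay on both sides of their receptors in best fold. Those named first have the highest folds of the list or an unadjusted exact binomial p below 0.05. Best fold is the highest over all summits of a gene, and for these lists it was not set against genes of like length. Among like-length genes with a summit its median was 171 at the length of Mst1r and 350 at that of Ntrk2. The comparisons with receptors are hence not adjusted for length. Gas6, the ligand of Axl, Tyro3 and Mertk, had a peak of 41 tags and a fold of 809, against at most 259 at those 3. Tgfa, a ligand of Egfr, held 9 summits against a prediction of 2.49 (exact binomial p = 0.00172, adjusted p = 0.342), with a best fold of 687. Agrn, the agrin gene whose product acts through Musk, held 7 against 1.88 (exact binomial p = 0.00448, adjusted p = 0.499), with a best fold of 447. Further ligands of the receptors above were chosen for naming after their values were seen. Egf had a best fold of 299, above that of Egfr. Pros1, which encodes protein S, and Hbegf, a ligand of Egfr, had no summit. The Egfr ligands Areg, Ereg, Btc and Epgn had best folds of 92.4, 82.1, 151 and 169. These were below the 179.5 of Egfr, which was itself the fold of a peak of 3 tags. Hgf, the ligand of Met, had 128 and Mst1, the ligand of Mst1r, 95.6, below their receptors. Nrg3, a neuregulin, had a fold of 838 and Efna5, an ephrin, 574, the highest of 16 and 8 summits in genes of 1108 and 278 kb. Of further receptor kinases, Ror2 reached a fold of 1077, Alk 934, Epha6 924 and Epha10 647. These were the highest of 10, 27, 12 and 3 summits, in genes of 177, 736, 969 and 36.3 kb. Among transducers the highest folds were at the adaptor genes Crkl (749), Gab1 (539), Grb2 (463) and Gab2 (423), and Crkl held 8 summits against a prediction of 2.43 (exact binomial p = 0.0043, adjusted p = 0.49). Among negative regulators they were at Spry4 (845), Nf1 (539), Cblb (359) and Ptpn1 (285), and Spred2, which restrains Ras signalling, held 10 summits against a prediction of 2.25 (exact binomial p = 0.000256, adjusted p = 0.141). The remaining genes at unadjusted p below 0.05 were Fgf9, Btc, Styk1, Fyn and Src as higher and Epha5 as lower.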

How the data were processed

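Per the file headers, the authors called the deposited peaks with MACS 1.4.4 from 1 merged treatment against 1 input, at a p cutoff of 1e-05 with a tag size of 25 bp and a fragment length of 53 bp. The submitters' processing notes name mm10 as the build. The aligner and the libraries merged are not given in the sources used here. The authors deposited a tag count per peak, a score of 10 times the negative log10 of p (not used for results), a fold ratio over input, a false discovery rate in percent (0 for every peak) and, as signal, the pileup height at each summit.

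RefSeq gene positions of GRCm38.p6, which is the same build, were used. Summits in the body or within 5 kb were counted with Python 3.11.15, numpy 2.4.6, pandas 2.3.3 and scipy 1.17.1. Flanks of 1 Mb ended at the outermost summits of a chromosome. The binomial test takes summits as independent and describes this list only, since there is no replicate. The counting was checked on randomly chosen genes, and the test on simulated independent counts. That simulation cannot show how the test behaves where summits cluster. Strand was known only where the promoter table gave it.

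The members and lists were chosen with earlier results of these data known. All members are accounted for. Full values are given for those highest in fold, tags, summits or ratio, lowest in ratio, or with a summit within 1 kb of an end, and the 4 highest folds of each related list are named. Alternatives covered the window, flanks, peak threshold and length range.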

Additional observations from a re-analysis of the deposited data

How the results depend on the processing

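No paired analysis was possible because each group has 1 library and the peak list joins them. The count of receptor genes with a summit ran from 27 to 33 over window sizes, interval overlap, at least 4 tags and fold at or above the median. With at least 10 tags it was 16, where the like-length shares summed to 13.7. The ratio of summits to the flanks' prediction stayed between 1.09 and 1.24 in every alternative run. In each of them 0 receptor genes passed the adjusted test, with the lowest adjusted p from 0.173 (flanks of 2 Mb) to 1. That test is itself sensitive: of all protein-coding genes 26 passed, but 16 with the body only, 11 with flanks of 0.5 Mb, 65 with flanks of 2 Mb, 0 at fold at or above the median (669 higher and 25 lower at an unadjusted exact binomial p below 0.05) and 0 when summits up to 2 kb apart were counted once (582 and 55), an alternative chosen after seeing the data. For these settings the cause was not tested, beyond that the last 2 leave fewer summits. Ratios of single genes were rerun only for some members. These had the largest or smallest ratios at a prediction of at least 2, or an unadjusted exact binomial p below 0.05. Among them, direction reversed for Pdgfrb, to a ratio of 0.785 with at least 4 tags and 0 at fold at or above the median. It also reversed for Flt1, to 1.12 at fold at or above the median. The remaining members, among them those with ratios near 1, were not rerun singly. With a median of 4 tags in a peak and few summits in a gene, ratios of single genes are imprecise.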
